A study of Homo sapiens with 13 samples.

Results

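Angiogenic factors and co-receptors, the vascular endothelial growth factors VEGFA, VEGFB and VEGFC, the placental growth factor PGF, adrenomedullin (ADM), ANGPTL4, endothelin-1 (EDN1), PDGFB and the neuropilins NRP1 and NRP2, were followed in a liver cancer line adapted to sorafenib. They were chosen by symbol, from rows of the array table whose platform annotation names that gene alone, with the row of the highest mean over all arrays used where a gene had several. All 10 of the 10 listed genes were found, among 18377 genes with 1 symbol each and 28926 rows in the table. NRP2 was the one member with more than 1 row. By the RefSeq gene table, VEGFA and EDN1 lie on chromosome 6, VEGFB and ADM on chromosome 11, VEGFC on 4, PGF on 14, ANGPTL4 on 19, PDGFB on 22, NRP1 on 10 and NRP2 on 2.

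The series measured total RNA on 13 Affymetrix whole-transcript arrays, 1 per culture flask. HepG2S1 is a derivative of HepG2, a human liver tumour line that the labels call hepatoblastoma, and was obtained by raising the dose of sorafenib, an inhibitor of RAF and of several receptor tyrosine kinases including the VEGF receptors, over months. The groups were HepG2S1 with 6 µM sorafenib at 2% O2 (n = 3), HepG2S1 withdrawn from the drug at 20% O2 (n = 3), HepG2S1 with 6 µM sorafenib at 20% O2 (n = 4) and HepG2 never given the drug at 20% O2 (n = 3). All flasks were harvested at 72 h, in a medium that held insulin and dexamethasone in every group. Whether HepG2S1 is a single clone, and whether flasks without sorafenib received its solvent DMSO, is not stated in the sources used here. HepG2S1 and HepG2 differ in line and in drug history at once, and these cannot be told apart. The flasks were separate, but separate cultures are not stated, so the p-values measure the spread between flasks.

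The members act between tumour cells and vessels. VEGFA, VEGFB and PGF bind the receptors FLT1 and, for VEGFA, KDR on endothelial cells, VEGFC acts on lymphatic vessels through FLT4, and the neuropilins are co-receptors for VEGFs and class 3 semaphorins. In low oxygen the HIF transcription factors, otherwise degraded after hydroxylation, bind a short DNA core upstream of or within their targets, and VEGFA, ADM and ANGPTL4 are among the best known of these targets.

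Array medians lay between 7.30 and 7.42 on the log2 scale, and the number of arrays limits the precision. Across all rows, arrays of 1 group correlated at 0.995 to 0.998, and HepG2S1 arrays correlated with HepG2 arrays at 0.913 to 0.923. Of the hepatocyte markers 7 were measured, and all 7 were lower in HepG2S1 under sorafenib than in HepG2, with array means of 5.75 to 5.84 in HepG2S1 under sorafenib at 20% O2 and 12.5 to 12.6 in HepG2. Between 3 and 5 of 11 endothelial markers lay below 5.76 in each group, the median lower quartile of the arrays. This line marks the dimmest rows by rank and is not a detection limit. The array means of the endothelial list were 6.14 to 6.29 at 2% O2, 6.23 to 6.32 after withdrawal, 6.22 to 6.31 under sorafenib at 20% O2 and 6.51 to 6.58 in HepG2. For the 7 pericyte and stellate markers they were 7.49 to 7.56, 7.38 to 7.44, 7.47 to 7.60 and 7.27 to 7.47 in the same order. Whether these markers bear on the members was not tested.

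VEGFA, the main mitogen of endothelial cells, was highest at 2% O2. Its log2 values were 12.28, 12.31 and 12.21 at 2% O2, 11.28, 11.30 and 11.30 after withdrawal, 11.26, 11.26, 11.26 and 11.19 under sorafenib at 20% O2, and 11.00, 10.99 and 11.07 in HepG2. The 4 groups did not overlap at any point. The step between neighbouring groups was 0.97 ± 0.05 (SE) for 2% O2 against withdrawal, with an adjusted p of 4.38e-08 in limma. HepG2S1 under sorafenib exceeded HepG2 by 0.22 ± 0.05, a 1.17-fold difference (adjusted p = 0.000698, limma). The gap between withdrawn and treated cells at 20% O2 was 0.05 with a 95% interval of -0.06 to 0.15, and it did not pass (adjusted p = 0.596, limma). The test thus separated 3 levels of VEGFA.

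VEGFB and VEGFC were set apart by line. VEGFB, a VEGF that binds FLT1 and not KDR, had values of 9.79, 9.88 and 9.82 at 2% O2, 9.63, 9.51 and 9.50 after withdrawal, 9.71, 9.73, 9.69 and 9.72 under sorafenib at 20% O2, and 8.60, 8.67 and 8.56 in HepG2. Every HepG2S1 array was above every HepG2 array, and the 3 HepG2S1 groups did not overlap with each other. VEGFB was 2.14-fold higher in HepG2S1 under sorafenib than in HepG2, a log2 fold change of 1.10 ± 0.05 (adjusted p = 2.89e-11, limma). After withdrawal it fell by 0.16 on the log2 scale (SE 0.05, adjusted p = 0.0368, limma). That call was lost when any one of 6 arrays was left out, replicates 2 and 3 of the withdrawn group and replicates 1 to 4 of the treated group at 20% O2, with adjusted p between 0.0602 and 0.161. At 2% O2 the difference from 20% O2 under the drug was 0.12 ± 0.05 and did not pass (adjusted p = 0.133, limma).

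VEGFC, the ligand of FLT4, had values of 8.31, 8.57 and 8.55 at 2% O2, 8.44, 8.40 and 8.29 after withdrawal, 8.57, 8.38, 8.47 and 8.55 under sorafenib at 20% O2, and 7.27, 7.63 and 7.32 in HepG2. The 3 HepG2S1 groups overlapped, and all their arrays lay above HepG2. The log2 fold change of HepG2S1 under sorafenib over HepG2 was 1.09 ± 0.09, or 2.13-fold (adjusted p = 2.59e-08, limma). Within HepG2S1, 2% O2 differed from 20% O2 by -0.02, with a 95% interval of -0.20 to 0.17, and withdrawal from treatment by -0.11, with an interval of -0.30 to 0.07.

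PGF, which binds FLT1, ran the other way between the lines. It had values of 7.19, 7.01 and 7.29 at 2% O2, 7.13, 7.24 and 7.36 after withdrawal, 7.32, 7.39, 7.36 and 7.53 under sorafenib at 20% O2, and 7.97, 8.10 and 7.93 in HepG2. Each HepG2 array was above each HepG2S1 array. PGF was lower in HepG2S1 under sorafenib than in HepG2, with a log2 fold change of -0.60 ± 0.08 (adjusted p = 5.46e-06, limma). The 2% O2 arrays lay just below those at 20% O2 under the drug without overlap, a difference of -0.24 ± 0.08 that missed the threshold (adjusted p = 0.0559, limma). It passed in 6 of 22 other settings, with adjusted p between 0.0227 and 0.253 over all 22. Leaving out replicate 3 at 2% O2, replicate 1 under sorafenib at 20% O2 or replicate 2 of HepG2 each brought it past the threshold (adjusted p = 0.0309, 0.0476 and 0.0493).

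**Figure D1:**
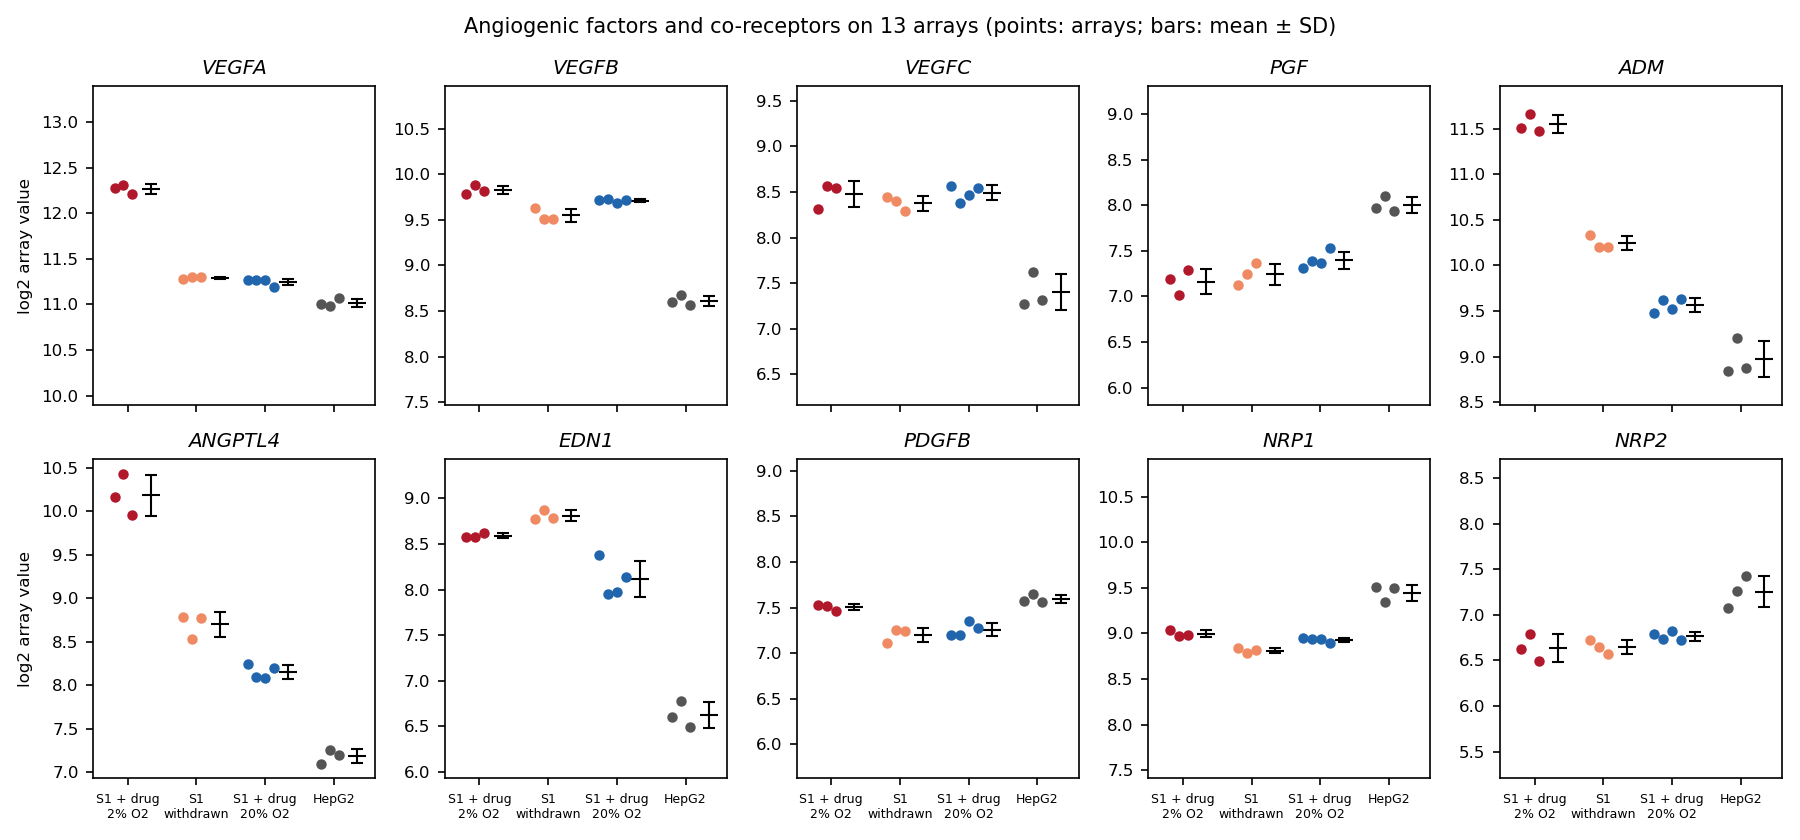
Log2 array values of the 10 genes in each of the 13 arrays (points), with the group mean and SD beside them, for HepG2S1 with sorafenib at 2% O2, HepG2S1 withdrawn, HepG2S1 with sorafenib at 20% O2 and HepG2. The panels span the same log2 range around their own middle, except that of ANGPTL4, which spans slightly more. VEGFA, ADM and ANGPTL4 stand highest at 2% O2. VEGFB, VEGFC and EDN1 differ by 1.10, 1.09 and 1.49 between treated HepG2S1 at 20% O2 and HepG2.

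ADM, ANGPTL4 and EDN1 were the 3 members that rose both on withdrawal and at 2% O2, and the bases before their transcription starts are shown for that reason. Of the 10 members 7 had an entry in the RefSeq promoter table of GRCh38.p14, and VEGFA, NRP1 and PDGFB had none. The window holds the 250 bases before the start on the strand of the gene, 5′ to 3′. Capitals mark the letters ACGTG or GCGTG, the core of the HIF binding motif, searched on both strands with overlaps allowed (CACGT or CACGC when on the other strand), and TATAAA, the TATA box, searched on the strand of the gene and added after the sequences had been seen. ADM is at chr11:10304823-10305072 on the plus strand, ANGPTL4 at chr19:8363905-8364154 on the plus strand, and EDN1, at the third of its 3 listed starts, at chr6:12290111-12290360 on the plus strand. This EDN1 start was picked after the motifs had been seen, as the one of the 3 with TATAAA.
ADM: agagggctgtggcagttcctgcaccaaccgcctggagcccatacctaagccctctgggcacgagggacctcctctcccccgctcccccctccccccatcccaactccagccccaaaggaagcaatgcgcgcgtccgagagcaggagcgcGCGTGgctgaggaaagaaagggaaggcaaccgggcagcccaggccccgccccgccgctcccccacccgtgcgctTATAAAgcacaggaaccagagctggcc
ANGPTL4: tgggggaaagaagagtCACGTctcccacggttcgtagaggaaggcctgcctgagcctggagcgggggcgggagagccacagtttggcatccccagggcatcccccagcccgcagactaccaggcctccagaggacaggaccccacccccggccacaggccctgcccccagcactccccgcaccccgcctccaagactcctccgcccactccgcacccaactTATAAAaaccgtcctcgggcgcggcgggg
EDN1: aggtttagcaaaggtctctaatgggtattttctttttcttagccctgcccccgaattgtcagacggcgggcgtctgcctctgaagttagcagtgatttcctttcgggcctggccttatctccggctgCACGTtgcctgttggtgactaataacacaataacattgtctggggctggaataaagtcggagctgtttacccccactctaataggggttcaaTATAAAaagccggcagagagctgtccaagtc
ADM held GCGTG with its first base 101 bases before the start, ANGPTL4 held CACGT at 234 and EDN1 held CACGT at 123. At its first start EDN1 held CACGT at 240 and 93 and GCGTG at 47 without TATAAA, and at its second start neither motif was found. TATAAA began 27, 29 and 31 bases before the start in ADM, ANGPTL4 and the third EDN1 start. Among 35116 windows of the table, 43.2% held ACGTG or GCGTG and 6.8% held TATAAA. The 7 members with an entry had 10 windows, of which 7 held a HIF core and 3 held TATAAA. NRP2 was the member without a HIF core in any window. A match describes letters in this window and says nothing of binding.

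ADM, a vasodilator peptide that also acts on lymphatic and blood vessel endothelium, had 4 levels that did not overlap. Its log2 values were 11.51, 11.67 and 11.48 at 2% O2, 10.34, 10.20 and 10.20 after withdrawal, 9.48, 9.62, 9.53 and 9.63 under sorafenib at 20% O2, and 8.84, 9.20 and 8.87 in HepG2. Each group stood above the next in that order. ADM was 1.60-fold higher in withdrawn than in treated cells, a log2 fold change of 0.68 ± 0.08 (adjusted p = 6.82e-05, limma). The step of 2% O2 over withdrawn cells was 1.30 ± 0.09 (adjusted p = 3.07e-07, limma), and that of treated cells over HepG2 was 0.59 ± 0.08 (adjusted p = 1.43e-05, limma). From one end of this order to the other, 2% O2 against HepG2, ADM was 5.97-fold higher.

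ANGPTL4, a secreted inhibitor of lipoprotein lipase, kept the same order. It had values of 10.16, 10.43 and 9.95 at 2% O2, 8.79, 8.54 and 8.77 after withdrawal, 8.24, 8.09, 8.08 and 8.19 under sorafenib at 20% O2, and 7.10, 7.26 and 7.20 in HepG2. No group overlapped with another. Withdrawn cells exceeded treated cells by 0.55 ± 0.10 (adjusted p = 0.00108, limma), treated cells exceeded HepG2 by 0.97 ± 0.10 (adjusted p = 2.78e-07) and cells at 2% O2 exceeded withdrawn cells by 1.48 ± 0.10 (adjusted p = 3.17e-07). The whole span, 2% O2 against HepG2, was 7.99-fold.

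EDN1, a vasoconstrictor peptide made mostly by endothelium, had its highest mean after withdrawal. It had values of 8.57, 8.58 and 8.62 at 2% O2, 8.78, 8.88 and 8.78 after withdrawal, 8.38, 7.96, 7.97 and 8.14 under sorafenib at 20% O2, and 6.60, 6.78 and 6.49 in HepG2. The 4 groups did not overlap, and the treated group at 20% O2 was the widest, with an SD of 0.20. EDN1 was 2.81-fold higher in HepG2S1 under sorafenib than in HepG2, a log2 fold change of 1.49 ± 0.09 (adjusted p = 8.84e-10, limma). Withdrawal added 0.70 ± 0.09 over treated cells, or 1.62-fold (adjusted p = 0.000114, limma), and withdrawn cells stood 4.56-fold above HepG2. Cells at 2% O2 exceeded cells at 20% O2 under the drug by 0.48 ± 0.09 (adjusted p = 0.00269, limma). The difference between 2% O2 and withdrawn cells was -0.22 ± 0.10 and did not pass (adjusted p = 0.143, limma), although it did with only those groups in the fit (0.0177) or with array weights (0.0397), in a range of 0.0177 to 0.320 over all settings. The order of these highest levels is therefore not settled.

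PDGFB, a ligand that recruits pericytes through PDGFRB, had values of 7.53, 7.52 and 7.47 at 2% O2, 7.11, 7.25 and 7.24 after withdrawal, 7.20, 7.20, 7.35 and 7.28 under sorafenib at 20% O2, and 7.57, 7.65 and 7.57 in HepG2. The withdrawn and treated groups at 20% O2 overlapped, and both lay below the 2% O2 arrays and below HepG2. PDGFB was lower in HepG2S1 under sorafenib than in HepG2 by a log2 fold change of -0.34 ± 0.06 (adjusted p = 7.90e-05, limma). It rose at 2% O2 over 20% O2 by 0.25 ± 0.06 (adjusted p = 0.00833, limma). At 2% O2 the remaining difference from HepG2 was -0.09, with a 95% interval of -0.22 to 0.04 (adjusted p = 0.216, limma).

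The neuropilins were both lower in HepG2S1. NRP1, a co-receptor of KDR, had values of 9.04, 8.97 and 8.98 at 2% O2, 8.84, 8.78 and 8.81 after withdrawal, 8.95, 8.93, 8.94 and 8.89 under sorafenib at 20% O2, and 9.50, 9.35 and 9.49 in HepG2. Its groups did not overlap, with HepG2 well above the rest. The log2 fold change of HepG2S1 under sorafenib against HepG2 was -0.52 ± 0.05 (adjusted p = 2.36e-07, limma), while the 2% O2 and withdrawn groups differed from the treated group at 20% O2 by 0.07 ± 0.05 and -0.12 ± 0.05 without passing (adjusted p = 0.368 and 0.144). NRP1 was higher at 2% O2 than after withdrawal by 0.19 ± 0.05 (adjusted p = 0.0274, limma). This call was lost in 6 other settings, among them without replicate 1 at 2% O2 (adjusted p = 0.108) and without replicate 1, 2 or 3 of the withdrawn group (0.0530, 0.100 and 0.0712), and its adjusted p ran between 0.00358 and 0.108.

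NRP2, the partner of FLT4, had values of 6.62, 6.79 and 6.49 at 2% O2, 6.72, 6.64 and 6.57 after withdrawal, 6.79, 6.73, 6.82 and 6.72 under sorafenib at 20% O2, and 7.08, 7.26 and 7.42 in HepG2. All HepG2S1 arrays were below all HepG2 arrays, and the HepG2S1 groups overlapped. The log2 fold change of HepG2S1 under sorafenib against HepG2 was -0.49 ± 0.08 (adjusted p = 8.33e-05, limma). The second NRP2 row, which is dimmer, gave means of 5.42 at 2% O2, 5.52 after withdrawal, 5.64 under sorafenib at 20% O2 and 6.44 in HepG2, the same direction between the lines.

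In HepG2S1 under sorafenib against HepG2, all 10 members passed, 6 higher and 4 lower, beside 57.3% of all genes (30.1% higher and 27.2% lower). Their arrays did not overlap between the groups for any of the 10, as for 56.2% of all genes. Most genes on the arrays differed between the lines, so the count by itself does not set the members apart. The median log2 fold change of the members was 0.41, against 0.01 over all genes. VEGFB, VEGFC and EDN1 changed 2-fold or more, as 8.45% of all genes did in the upward direction. Withdrawn HepG2S1 cells against HepG2 gave the same 6 higher and 4 lower members, with 56.6% of all genes past the threshold, 29.6% higher and 27% lower. At 2% O2 against HepG2, 6 members were higher and 3 lower, with 61.2% of all genes past it, 30.6% in each direction. No member overlapped with HepG2 in either comparison, as 60.4% of all genes did not for withdrawn cells and 63.5% did not for 2% O2.

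After withdrawal against continued sorafenib, ADM, ANGPTL4 and EDN1 were higher, VEGFB was lower and 6 members did not pass. Over all genes 18% passed, 10.1% higher and 7.9% lower. The arrays of the groups did not overlap for 6 members, beside 30.2% of all genes. Ordered by the size of the change among 18377 genes, EDN1 stood at 130, ADM at 145 and ANGPTL4 at 326, while VEGFA stood at 13229. The median over the members was -0.09, against -0.02 over all genes. No other member passed as higher.

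At 2% O2 against 20% O2, both under the drug, VEGFA, ADM, ANGPTL4, EDN1 and PDGFB were higher, none of the 10 was lower by limma's adjusted p and 5 did not pass. At an unadjusted p under 0.05, 1 of them, PGF, was lower in limma. Over all genes 15.2% passed, 8.99% higher and 6.17% lower. The arrays did not overlap for 8 members, beside 28.2% of all genes. ANGPTL4 changed by 2.03 ± 0.10 and ADM by 1.99 ± 0.08 (adjusted p = 3.90e-09 and 1.23e-09, limma), which put them at positions 7 and 8 of all genes by size. VEGFA, at position 75, changed by 1.02 ± 0.05 (adjusted p = 3.50e-09, limma). Only 0.43% of all genes were higher by 2-fold or more, and VEGFA, ADM and ANGPTL4 were among them. The median over the members was 0.18, against -0.03 over all genes.

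The withdrawal and low oxygen comparisons share the 4 treated arrays at 20% O2, so agreement between them is not independent. Set side by side, ADM changed by 1.99 at 2% O2 and 0.68 on withdrawal, ANGPTL4 by 2.03 and 0.55, VEGFA by 1.02 and 0.05, and EDN1 by 0.48 and 0.70. The direct comparison of 2% O2 with withdrawn cells, in which drug and oxygen change together and cannot be told apart, gave 6 members higher and 0 lower by limma, beside 18.6% of all genes, 10.8% higher and 7.73% lower. The arrays did not overlap for 7 members and 38% of all genes. At an unadjusted p under 0.05, 1 member, EDN1, was lower in limma. The 6 higher members were VEGFA, VEGFB, ADM, ANGPTL4, PDGFB and NRP1.

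**Figure D2:**
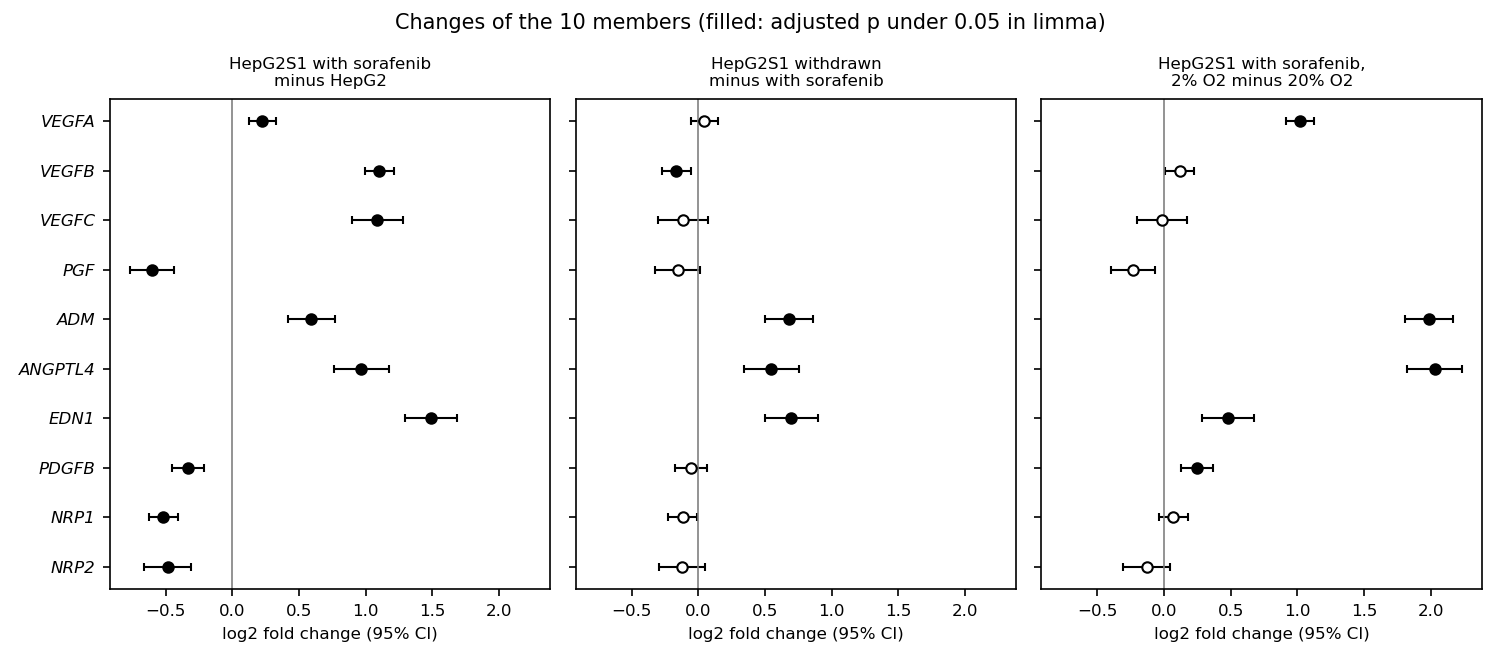
Log2 fold changes of the 10 genes with 95% confidence intervals, for HepG2S1 with sorafenib against HepG2, withdrawn against treated HepG2S1, and 2% against 20% O2 in treated HepG2S1; filled points have an adjusted p under 0.05 in limma. ADM and ANGPTL4 reach 1.99 and 2.03 at 2% O2, VEGFA stands at 1.02 at 2% O2 and 0.05 on withdrawal, and EDN1 has its largest change between the lines (1.49).

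Of 19 receptors listed 18 were measured (EDNRA was not), and 5 to 6 of the 18 lay below the lower quartile in each group. FLT1, the receptor of VEGFA, VEGFB and PGF, had group means of 4.87, 4.93, 4.89 and 4.85 at 2% O2, after withdrawal, under sorafenib at 20% O2 and in HepG2, all below the lower quartile. CALCRL, the adrenomedullin receptor, and EDNRB, an endothelin receptor, were also below it in every group. KDR, the other VEGFA receptor, had means of 5.65, 5.70 and 5.69 in the HepG2S1 groups, below it, and 5.88 in HepG2, just above it. KDR was lower in HepG2S1 under sorafenib than in HepG2 by -0.19 ± 0.07 (adjusted p = 0.0246, limma), with overlapping arrays. FLT4 and PDGFRB lay above the lower quartile in every group. FLT4, the receptor of VEGFC, had group means of 6.86 to 7.05, and PDGFRB, a receptor of PDGFB, 7.07 to 7.33. RAMP1 and RAMP3 also lay above it, at 8.35 to 8.61 and 8.01 to 8.20, but they act as partners of CALCRL, which lay below it. PDGFRA, another receptor of PDGFB, lay below the lower quartile in every group, at 5.49 to 5.72. In HepG2S1 under sorafenib against HepG2, 3 receptors were higher and 3 lower, beside 30.1% and 27.2% of all genes. TIE1, an orphan receptor of endothelial cells, was lower (-0.76 ± 0.10), as was RAMP2, which pairs with CALCRL to bind adrenomedullin (-0.36 ± 0.07). PLXNA2 and PLXND1, plexins that bind semaphorins, were higher by 0.51 ± 0.06 and 0.49 ± 0.06. After withdrawal PLXNA2 rose by 0.34 ± 0.06 and PLXNA3 changed by -0.57 ± 0.07, and the other 16 did not pass. Over all genes 10.1% were higher and 7.9% lower on withdrawal, and 8.99% and 6.17% were at 2% O2. At 2% O2 PLXND1 (0.44 ± 0.06), TEK, the angiopoietin receptor (0.37 ± 0.10, from a mean below the lower quartile at 20% O2), and PLXNA3 (0.28 ± 0.07) were higher, and 2 were lower, including RAMP2 (-0.26 ± 0.07). Leaving out single arrays changed the count of lower receptors at 2% O2. None was left (0 of 18) without replicate 1 or 2 at 2% O2 or replicate 2 or 4 under sorafenib at 20% O2, and 1 was left without replicate 1 or 2 of the withdrawn group, replicate 3 under sorafenib at 20% O2 or any HepG2 array. The RAMP2 call was lost without any 1 of the 3 replicates at 2% O2, without replicate 2 or 4 under sorafenib at 20% O2, and with repeated quantile normalization. PLXNA3 did not pass without replicate 1 at 2% O2, and neither TEK nor PLXNA3 passed without replicate 2, which left 1 higher receptor.

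Some other ligands that act on vessels had larger log2 fold changes between the lines than any member. Their list was not sorted by whether a ligand promotes or restrains vessel growth. Of 25 listed 22 were measured. Of these, 6 were higher and 8 lower in HepG2S1 under sorafenib than in HepG2, beside 30.1% and 27.2% of all genes. SEMA3C, a semaphorin that binds neuropilins, stood at 9.75 ± 0.11 (SD, n = 4) in HepG2S1 under sorafenib and 5.80 ± 0.11 (SD, n = 3) in HepG2, a log2 fold change of 3.95 ± 0.07. The ephrin EFNB2 changed by 3.89 ± 0.09, from values in HepG2 below the lower quartile. The fibroblast growth factor FGF2 changed by 3.55 ± 0.13 and ANGPT1, the agonist of TEK, by 1.33 ± 0.12. The HepG2 means of SEMA3C (5.80) and ANGPT1 (5.89) were just above the lower quartile. After withdrawal 3 were higher still, FGF2 (0.58 ± 0.13), EFNB2 (0.44 ± 0.09) and SEMA3C (0.36 ± 0.07), and 3 were lower, SEMA3B by the most (-0.42 ± 0.06). The shares of all genes were 10.1% higher and 7.9% lower on withdrawal, and 8.99% and 6.17% at 2% O2. At 2% O2 EDN2, a second endothelin, rose by 1.50 ± 0.11 (adjusted p = 2.93e-07, limma). The ephrin EFNA1 rose by 1.42 ± 0.10 and EFNB2 by 0.55 ± 0.09, while SEMA3C, the only one of the 22 that passed as lower, changed by -0.26 ± 0.07, a call lost without replicate 2 or 3 at 2% O2 or replicate 4 under sorafenib at 20% O2. EDN2 stood at 9.85 ± 0.28 (SD, n = 3) at 2% O2 and 8.61 ± 0.03 (n = 3) after withdrawal.

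All 11 of the 11 listed genes whose products process or bind the ligands, enzymes and others, were measured. In HepG2S1 under sorafenib against HepG2 5 were higher and 2 lower, beside 30.1% and 27.2% of all genes. FURIN, a convertase that cleaves VEGFC and other precursors, was lower (-2.42 ± 0.06), and PCSK5, a related convertase, was lower (-0.63 ± 0.08), with its mean under sorafenib below the lower quartile. HPSE, which cuts heparan sulfate, was higher (2.10 ± 0.07). PAM, which amidates adrenomedullin, was also higher between the lines (1.29 ± 0.06), and it rose at 2% O2 (0.51 ± 0.06, adjusted p = 6.35e-05, limma). On withdrawal PAM changed by 0.21 ± 0.06, a call lost without any 1 of 6 arrays, all 3 withdrawn replicates and replicates 2, 3 and 4 under sorafenib at 20% O2. ECE1, the enzyme that cuts big endothelin, was lower after withdrawal (-0.29 ± 0.05) and at 2% O2 (-0.30 ± 0.05), and HSPG2, the proteoglycan perlecan, was lower after withdrawal (-0.31 ± 0.05). At 2% O2 4 were lower, beside 6.17% of all genes. The count was 1 or 2 without replicate 1 or 2 at 2% O2, replicate 2 of the withdrawn group or replicate 1, 2 or 4 under sorafenib at 20% O2.

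All 10 of the 10 genes listed as inhibitors of vessel growth were measured. The list includes VASH2, for which that label may not hold. Between HepG2S1 under sorafenib and HepG2 3 were higher and 5 lower, beside 30.1% and 27.2% of all genes. SERPINF1, the secreted factor PEDF, stood at 5.97 ± 0.18 (SD, n = 4) in HepG2S1 under sorafenib and 13.37 ± 0.08 (SD, n = 3) in HepG2, a log2 fold change of -7.40 ± 0.09. Its HepG2S1 means lay near the lower quartile of 5.76, with 5.85 after withdrawal and 5.75 at 2% O2. TIMP2, a metalloproteinase inhibitor, and ADAMTS1, a protease, were higher by 1.73 ± 0.06 and 1.48 ± 0.11. THBS1, thrombospondin-1, was lower under sorafenib than in HepG2 (-1.21 ± 0.08) and rose on withdrawal (1.27 ± 0.08, adjusted p = 4.54e-07, limma). Its mean was 11.63 ± 0.01 (SD, n = 3) after withdrawal and 11.57 ± 0.09 (SD, n = 3) in HepG2. TIMP3 and TIMP2 were lower after withdrawal (-0.57 ± 0.06 and -0.26 ± 0.06). At 2% O2 1 of the 10 passed, TIMP2 (-0.21 ± 0.06), beside 15.2% of all genes. This call was lost without any 1 of 6 arrays, each of the 3 at 2% O2 and replicates 1, 3 and 4 under sorafenib at 20% O2.

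HIF targets outside the 10 members were mostly higher in both comparisons within HepG2S1. At 2% O2 15 of 15 passed as higher, beside 8.99% of all genes. The list median of the log2 fold change was 1.10, against -0.03 over all genes. PFKFB4, a regulator of glycolysis, rose by 2.06 ± 0.11, the enolase ENO2 by 2.05 ± 0.07, EGLN3, a hydroxylase that marks HIF for degradation, by 1.90 ± 0.15 and the glucose transporter SLC2A1 by 1.51 ± 0.06. On withdrawal 12 of 15 were higher, beside 10.1% of all genes, and 0 lower by limma (0 also at an unadjusted p under 0.05). The list median was 0.35, against -0.02 over all genes. PGK1, KDM3A and BHLHE40 were the 3 that did not pass, at 0.10 (SE 0.05), 0.10 (0.06) and -0.05 (0.05), with adjusted p of 0.172, 0.270 and 0.650. SLC2A1 rose by 0.99 ± 0.06, NDRG1 by 0.70 ± 0.05, PFKFB4 by 0.65 ± 0.11 and EGLN3 by 0.60 ± 0.15. The count on withdrawal was 8 without replicate 2 of the withdrawn group, where EGLN3 was among those lost. Between treated HepG2S1 and HepG2 the list split, with 5 higher and 6 lower, beside 30.1% and 27.2% of all genes. Its median there was 0.10. SLC2A1 was lower (-2.36 ± 0.06) as was EGLN3 (-1.02 ± 0.15), and NDRG1 (0.98 ± 0.05) and PGK1 (0.74 ± 0.05) were higher. These lists were chosen with results of the same arrays known, so their directions are descriptions.

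**Figure D3:**
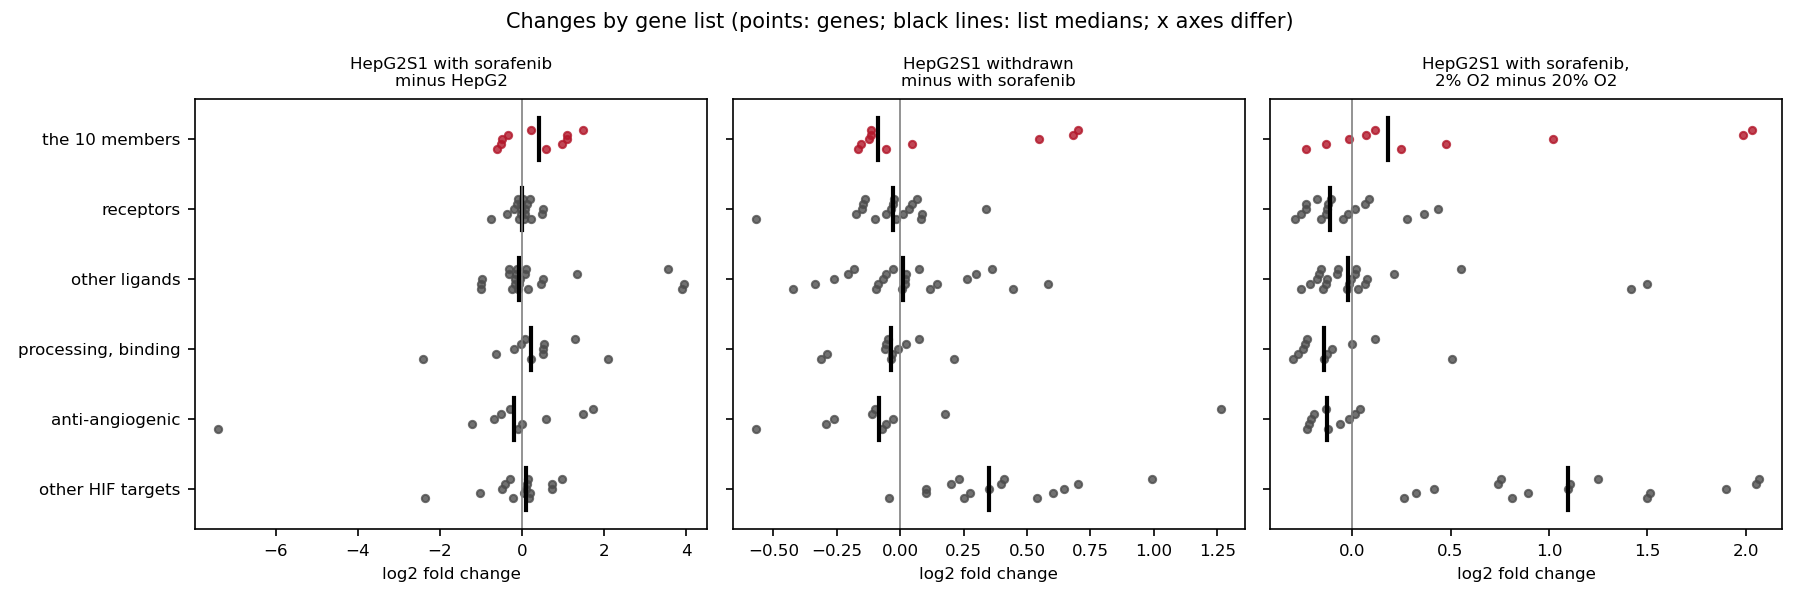
Log2 fold changes of the members and of 5 gene lists (points: genes; black lines: medians) in the same 3 comparisons, with an axis of its own for each. The HIF targets outside the members lie to the right of 0 at 2% O2 (median 1.10) and mostly so on withdrawal (0.35), while the receptors, processing and binding genes and inhibitors centre near 0.

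The genes whose profile over the 13 arrays lay closest to VEGFA, by the root mean square difference after subtracting each gene's own mean, were BHLHE40 (0.0769), a transcription repressor, PDK1 (0.0785), a kinase that restrains pyruvate entry into mitochondria, and ELF3 (0.112), an epithelial transcription factor. BHLHE40 had means of 11.61 at 2% O2, 10.67 after withdrawal, 10.72 under sorafenib at 20% O2 and 10.53 in HepG2, and like VEGFA it did not pass on withdrawal. ADM and ANGPTL4 lay closest to each other (0.194). The next nearest to ADM were NDRG1 (0.241) and HEY1 (0.260), and to ANGPTL4 HILPDA (0.222), a lipid droplet protein, and NDRG1 (0.270). NDRG1 had means of 13.13 at 2% O2, 12.33 after withdrawal, 11.63 under sorafenib at 20% O2 and 10.65 in HepG2, the order of ADM and ANGPTL4. Likeness here describes 13 arrays in 4 groups and carries no test.

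**Figure D4:**
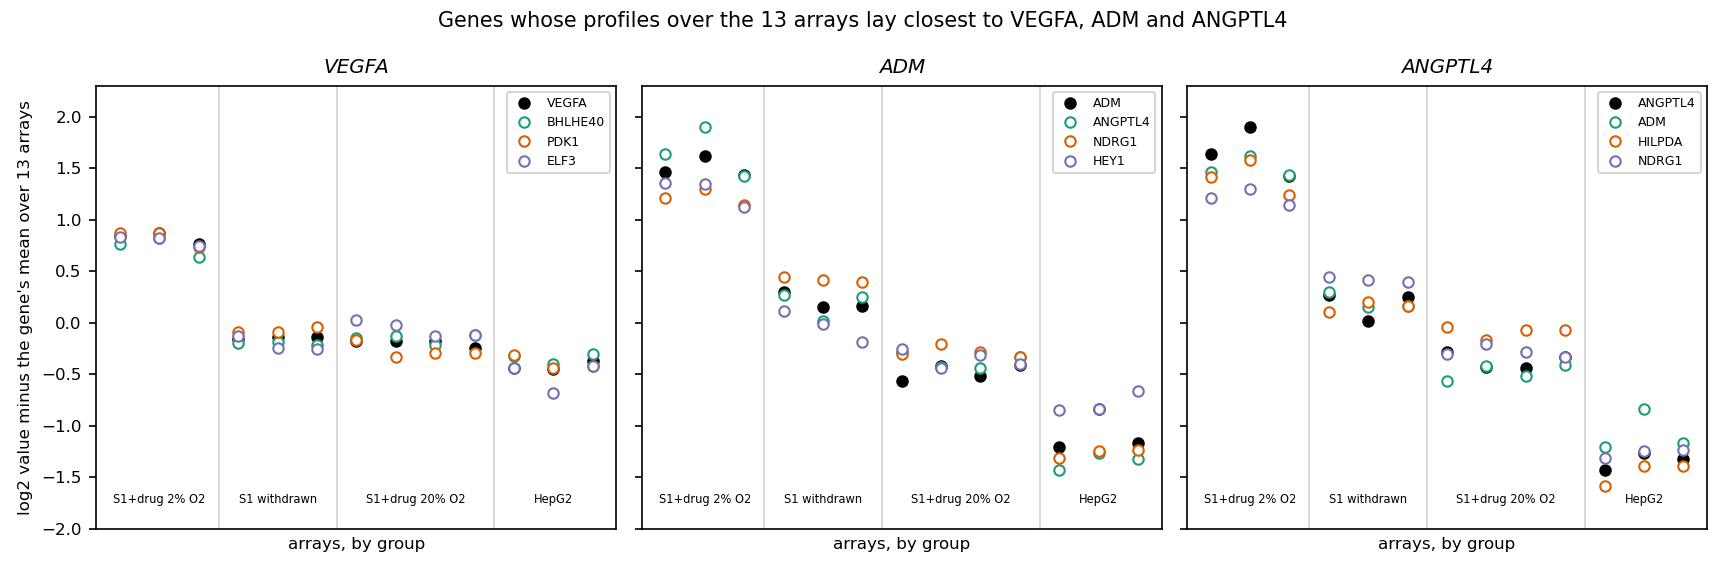
Log2 values minus each gene's own mean over the 13 arrays, by array and group, for VEGFA, ADM and ANGPTL4 (filled) and the 3 genes closest to each (open). VEGFA and its neighbours step the most at 2% O2, whereas ADM, ANGPTL4 and NDRG1 step down from 2% O2 through withdrawn and treated cells to HepG2.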

How the data were processed

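RNA from 13 flasks was hybridised to 13 Affymetrix whole-transcript arrays. Per the submitters' processing notes, the deposited log2 values come from RMA, a method that subtracts background, aligns the arrays' distributions and joins the probes of a transcript, and that draws low signals together. Its version is not given in the sources used here. Symbols came from the platform annotation, updated through the RefSeq gene table. Rows with 1 symbol were kept, a gene with several rows was read from its brightest row, and 18377 genes were tested. Groups were compared with lmFit and eBayes of limma 3.58.1 under R 4.3.3, in 1 fit over the 4 groups, with Benjamini-Hochberg adjustment over all genes within each comparison and a threshold of 0.05. Fold changes are the first group minus the second. The fit was also run on simulated arrays with independent noise and few changed genes, unlike the comparisons between the lines. That run does not bear on effects that flasks of a group share.

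The members and lists were chosen with earlier results of these data known. From each list, up to 4 genes with the largest change among those that passed were named per comparison, and for VEGFA, ADM and ANGPTL4 the 3 genes with the closest profile. PGK1, KDM3A, BHLHE40, FLT1, KDR, FLT4, PDGFRA, PDGFRB, RAMP1, RAMP3, CALCRL, EDNRB and VASH2 were named after their values were seen. The alternatives were other moderation, subsets of the arrays, a level filter at the 33rd percentile, scaling to the 75th percentile, repeated quantile normalization, array weights, other handling of rows, a threshold of 0.01 and leaving out each array. Plots used matplotlib 3.10.9 and Python 3.11.15.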

Additional observations from a re-analysis of the deposited data

Results flagged for a closer look

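Among the 4 arrays of HepG2S1 under sorafenib at 20% O2, 4 of 42 genes checked had 1 array farther from the others than Dixon's 95% limit, where chance alone flags about 1 in 20 such groups. For VEGFA, replicate 4 stood at 11.19 and the nearest other array at 11.26, a gap of 0.992 of the group's range. For SERPINF1, replicate 1 stood at 5.70 and the nearest at 6.05, a gap of 0.967 of the range. For HSPG2, replicate 2 stood at 10.24 and the nearest at 10.17, a gap of 0.854 of the range. For TIMP3, replicate 4 stood at 10.73 and the nearest at 10.82, a gap of 0.841 of the range. Without replicate 4 the VEGFA difference between withdrawn and treated cells was 0.03, and 0.05 with it, and it passed neither way.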

How the results depend on the processing

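No paired analysis was possible because the groups share no replicate numbers: the labels number the flasks once across the series, and replicate numbers follow accession order. The members past the threshold numbered 10 in HepG2S1 under sorafenib against HepG2 in every leave-one-out fit and 9 to 10 under other settings, NRP2 being removed by the level filter. On withdrawal they numbered 3 to 4 in leave-one-out fits and 3 to 5 otherwise, at 2% against 20% O2 5 to 6 in both, at 2% O2 against withdrawal 5 to 6 and 5 to 7, and at 2% O2 against HepG2 9 and 8 to 10. Withdrawn cells against HepG2 gave 10 and 9 to 10. PDGFB at 2% O2 against HepG2 passed with 75th percentile scaling (adjusted p = 0.0356, limma, in a range of 0.0356 to 0.451), and NRP1 on withdrawal with array weights (0.0359, in a range of 0.0359 to 0.362). Small differences that passed nowhere changed sign: VEGFC at 2% against 20% O2 ran between -0.0628 and 0.0663 in leave-one-out fits (0.0663 without replicate 1 at 2% O2, 0.00889 without replicate 1 and 0.00263 without replicate 4 under sorafenib at 20% O2). NRP2 at 2% O2 against withdrawal was 0.0323 with repeated quantile normalization and ran between -0.0876 and 0.0624 in leave-one-out fits (0.0624 without replicate 3 at 2% O2 and 0.0283 without replicate 1 of the withdrawn group). The cause was not tested. Counts over all genes moved more than those of the members. With array weights 5231 genes passed on withdrawal (3303 without weights), 4568 at 2% against 20% O2 (2786) and 5178 at 2% O2 against withdrawal (3412). At a threshold of 0.01 these were 1970, 1298 and 2049, and 2% against 20% O2 gave 1722 genes without replicate 1 and 1598 without replicate 2 at 2% O2. The table holds no detection calls or scan dates, so signal over background and batch were not analysed here.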
